A study of Mus musculus with 12 samples.

Results

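Wnt signalling genes were followed in the oviduct and uterus of mice given excess estradiol (E2) during preimplantation pregnancy. The 52 genes were taken by name from 19938 measured genes with a probe set of their own. They were the Wnt ligands, Frizzled receptors, secreted Frizzled-related proteins, Dickkopf proteins and R-spondins, plus Ndp, Lrp5, Lrp6, Lgr4, Lgr5, Lgr6, Axin2, Lef1, Znrf3 and Wif1. By role these were 20 ligands, 12 receptors, 4 R-spondins, 3 R-spondin receptors, 9 secreted inhibitors and 3 targets or feedback regulators. The name pattern for Frizzled genes also took in 1 opposite-strand transcript, Fzd10os.

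RNA of 12 samples was hybridised to Affymetrix mouse gene arrays, 1 biotin-labelled sample per array. E2 mice received 10 µg/kg of E2 in sesame oil under the skin daily from day 0.5 to day 2.5 of pregnancy, and oil mice received the vehicle with 0 µg/kg. Organs were flushed and frozen on day 3.5. The groups were E2 uterus, oil uterus, E2 oviduct and oil oviduct, each with 3 arrays that the labels call biological replicates. The labels used here state no strain or age, and they do not say whether an RNA came from 1 mouse or several. The p-values measure the spread between these samples. All mice were pregnant, so no group was free of the hormones of pregnancy.

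Wnt proteins are secreted, lipid-modified ligands that bind a Frizzled receptor together with Lrp5 or Lrp6, after which beta-catenin accumulates and activates genes with factors of the TCF and LEF family. R-spondins bind Lgr receptors and remove the ubiquitin ligases Znrf3 and Rnf43, which otherwise take Frizzled receptors off the cell surface. Sfrp proteins and Wif1 capture the ligands, and Dickkopf proteins such as Dkk1 bind Lrp5 and Lrp6. Dkk3, a divergent family member, is counted with the inhibitors by name. In the mouse reproductive tract, Wnt4, Wnt5a and Wnt7a are needed to form or pattern the Müllerian ducts, from which oviduct and uterus arise, and Wnt4 is needed for the uterine stroma to decidualise.

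Values are log2 intensities of a probe set, comparable between arrays but not between genes. The median intensity of an array was 89.5 to 92.9. Pearson's r between arrays of the same group was 0.984 to 0.996 across genes, which do not count as independent replicates. All 7 ciliated cell markers were higher in oviduct than in uterus of oil mice, with a summed intensity of 3742 to 7044 in oil oviduct and 1470 to 1565 in oil uterus. The 6 uterine gland markers summed to 813 to 1060 in oil uterus and 248 to 316 in oil oviduct. Only 3 of these 6 were called lower in oviduct of oil mice, and 0 higher. No member lay at or below 4.40 on all arrays, the highest Y-linked value in this female tissue apart from Sry. Sry itself reached 7.50, and 25 members stayed below that on every array. Where a group mean lies below 7.50, the exact size of a fold change is uncertain.

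Oil replicate 3 stood apart in both tissues. Its oviductal array had 302 genes, and its uterine array 177 genes, displaced by over 1 log2 unit relative to the remaining arrays of the group, against 8 to 62 genes on each of the other arrays. Members were displaced that far in 5 cases. On the uterine array of oil replicate 3, the secreted inhibitor Sfrp1 lay 1.26 and the R-spondin receptor Lgr5 1.06 above the other oil arrays. On its oviductal array Sfrp4 lay 1.88 above. That array was also high in corpus luteum markers, whose summed intensity over 5 genes ranged from 173 to 4688 in oil oviduct. Their part in the Sfrp4 value was not tested. Sfrp2 lay 1.53 above the others on the array of E2 oviduct replicate 1, and Sfrp4 1.12 below on that of oil oviduct replicate 2.

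**Figure D1:**
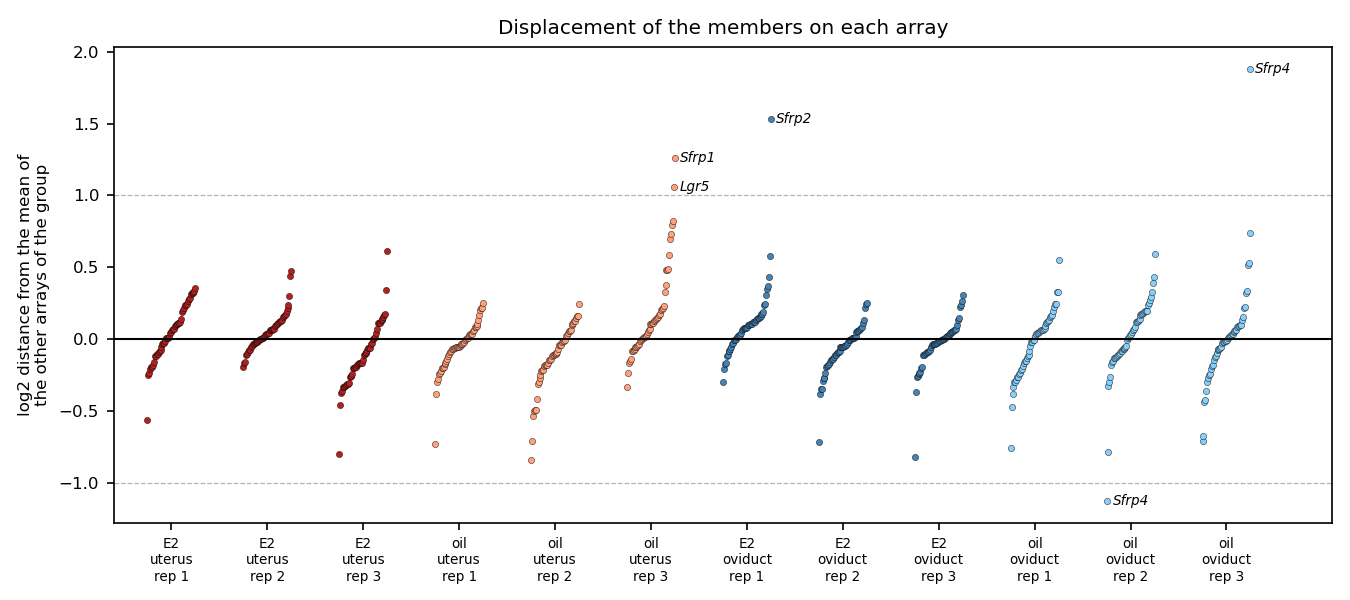
Each point is a member on an array, plotted by its distance in log2 units from the mean of the other arrays of its group, with arrays along the horizontal axis and dashed lines at 1 unit. Most members lie near 0, and the 5 labelled points (Sfrp1 and Lgr5 in oil uterus replicate 3, Sfrp2 in E2 oviduct replicate 1, Sfrp4 in oil oviduct replicates 2 and 3) lie beyond the lines.

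In the uterus, E2 changed 13 of the 52 genes by limma, 8 upward and 5 downward. That is 25% of the members, beside 26.7% of all genes tested, so the share itself is near the background. By direction, 15.4% of members rose beside 12.4% of all genes, and 9.62% fell beside 14.3%. Falls of Ndp and Lef1 were the only called changes of at least 2-fold (3.85% beside 3.44%). Arrays of E2 and oil uterus did not overlap for 17 members, or 32.7% beside 40.5%. Rises of Wnt7a, Rspo1, Fzd10, Rspo3, Wnt4, Fzd10os, Wnt7b and Fzd8 stood beside further falls of Dkk2, Fzd2 and Fzd1. The median log2 change was 0.03 over the members and 0.00 over all genes. In whole organs, fewer cells of a type and less RNA per cell cannot be told apart.

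The largest change of a ligand was that of Ndp, which encodes norrin, a ligand unrelated to Wnt proteins that activates Fzd4 with Lrp5. Ndp measured 6.44, 6.67 and 6.68 in E2 uterus, against 9.33, 9.44 and 9.05 in oil uterus. Every E2 array lay more than 2 log2 units below every oil array. The difference was -2.68 (SE 0.12, adjusted p = 1.04e-07), a 6.40-fold fall. Its E2 mean lay below 7.50.

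Wnt7a, an epithelial ligand of the female tract, measured 7.26, 7.68 and 7.21 in E2 uterus, against 6.24, 6.07 and 6.89 in oil uterus. The groups did not overlap, and the third oil array lay nearest to the E2 arrays. The rise was 0.98 (SE 0.19, adjusted p = 0.00210), and 1.23 without both arrays of oil replicate 3. Wnt4, the ligand used in decidualisation, measured 7.66, 7.58 and 7.56 in E2 uterus, against 6.97, 6.96 and 7.18 in oil uterus. It rose by 0.57 (SE 0.09, adjusted p = 0.000708) without overlap, with the oil mean below 7.50. Wnt4 was the only member with a further probe set, which differed by 0.67 in the same direction.

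Wnt7b, a ligand known from lung and kidney development, measured 6.55, 6.58 and 6.49 in E2 uterus, against 6.08, 6.12 and 6.03 in oil uterus. The groups lay apart, with both means below 7.50, and the rise was 0.46 (SE 0.12, adjusted p = 0.0126). The other 16 ligands did not pass the test. Among these, Wnt11, which acts largely without beta-catenin, differed by -0.32 (adjusted p = 0.199), Wnt5a, a ligand of the planar polarity branch, by -0.20 (adjusted p = 0.256), and Wnt16 by 0.05 (adjusted p = 0.719). The remaining 13 lay between -0.08 and 0.19.

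The regions around the annotated start of the 4 members with the largest changes in the uterus are shown because they fell and rose by the most. They come from RefSeq on GRCm38.p6, where 33 of the 52 members have an entry. Each runs 5′ to 3′ on the gene's strand, with 250 bases before the start in lower case and the 50 bases from the start in capitals. Ndp lies at chrX:16911725-16912024 on the minus strand, Lef1 (the first of 4 starts) at chr3:131110047-131110346 on the plus strand, Wnt7a at chr6:91411304-91411603 on the minus strand and Rspo1 at chr4:124986180-124986479 on the plus strand.
Ndp: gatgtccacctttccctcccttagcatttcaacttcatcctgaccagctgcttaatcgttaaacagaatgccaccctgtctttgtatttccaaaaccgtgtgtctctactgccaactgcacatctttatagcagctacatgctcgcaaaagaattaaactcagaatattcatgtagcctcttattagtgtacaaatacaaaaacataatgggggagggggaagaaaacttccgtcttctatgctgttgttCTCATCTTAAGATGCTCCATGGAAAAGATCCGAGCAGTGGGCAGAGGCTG
Lef1: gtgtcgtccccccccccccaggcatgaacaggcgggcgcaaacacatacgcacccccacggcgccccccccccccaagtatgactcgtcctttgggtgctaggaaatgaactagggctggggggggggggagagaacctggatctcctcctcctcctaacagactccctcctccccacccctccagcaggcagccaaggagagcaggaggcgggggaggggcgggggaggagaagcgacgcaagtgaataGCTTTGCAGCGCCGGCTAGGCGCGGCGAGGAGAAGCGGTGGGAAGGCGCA
Wnt7a: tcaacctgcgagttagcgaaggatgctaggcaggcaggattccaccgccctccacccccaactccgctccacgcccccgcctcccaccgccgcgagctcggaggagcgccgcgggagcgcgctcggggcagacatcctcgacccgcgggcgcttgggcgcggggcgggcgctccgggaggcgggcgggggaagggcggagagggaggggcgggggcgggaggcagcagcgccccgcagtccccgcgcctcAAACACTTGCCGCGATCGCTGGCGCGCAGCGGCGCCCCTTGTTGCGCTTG
Rspo1: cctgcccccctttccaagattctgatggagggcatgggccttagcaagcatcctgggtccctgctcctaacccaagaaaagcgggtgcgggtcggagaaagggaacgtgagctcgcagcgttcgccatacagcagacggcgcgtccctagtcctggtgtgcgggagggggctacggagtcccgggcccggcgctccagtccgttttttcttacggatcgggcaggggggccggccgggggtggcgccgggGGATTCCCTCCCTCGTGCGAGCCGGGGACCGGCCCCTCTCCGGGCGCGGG

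These regions differ in base composition. The share of G and C was 43.0% for Ndp, 67.3% for Lef1, 76.0% for Wnt7a and 69.0% for Rspo1, against a median of 52.7% over 32851 regions of the same length. CpG pairs numbered 5 for Ndp, 18 for Lef1, 42 for Wnt7a and 29 for Rspo1, with a median of 7 over all regions. On either strand, the TCF or LEF core CTTTGAT was present in 2 of the 33 members, Wnt11 and Wnt5b, and in 4.29% of 27025 genes. The core CTTTGAA was present in 1 member, Dkk1, and in 5.93% of genes. The palindromic estrogen response element GGTCANNNTGACC was found in 0 of the 33 members and in 0.074% of genes. A match, or none, describes only these letters in this window.

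Receptors changed in both directions, with 2 rises and 2 falls among 12, beside 12.4% and 14.3% of all genes. These counts lie near the background. Fzd10 measured 6.88, 6.95 and 6.59 in E2 uterus, against 6.02, 5.90 and 6.07 in oil uterus. The E2 arrays were all higher, although both means lay below 7.50, and the rise was 0.81 (SE 0.10, adjusted p = 9.33e-05). Fzd10os, the transcript annotated next to it on the opposite strand, measured 6.39, 6.25 and 6.14 in E2 uterus, against 5.64, 5.82 and 5.77 in oil uterus. It rose by 0.52 (SE 0.09, adjusted p = 0.00174), also without overlap and below 7.50. The annotated spans of the pair do not overlap.

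Fzd8, a receptor close in sequence to Fzd5, measured 7.00, 7.06 and 7.14 in E2 uterus, against 6.69, 6.67 and 6.85 in oil uterus. Its rise of 0.33 (SE 0.07, adjusted p = 0.00448) was the smallest among the 13 called members, with both means below 7.50. Fzd2 and Fzd1, closely related receptors, moved the other way. Fzd2 measured 8.58, 8.67 and 8.63 in E2 uterus, against 9.18, 9.29 and 9.19 in oil uterus, a fall of 0.59 on the log2 scale (SE 0.06, adjusted p = 2.95e-05). Fzd1 measured 8.38, 8.49 and 8.45 in E2 uterus, against 8.88, 8.90 and 9.00 in oil uterus, and fell by 0.48 (SE 0.09, adjusted p = 0.00198). Neither pair of groups overlapped.

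Fzd4, the receptor of norrin, measured 7.53, 7.51 and 7.87 in E2 uterus, against 7.98, 8.10 and 7.90 in oil uterus. The E2 arrays were all lower, with replicate 3 close to the oil arrays, and the difference of -0.36 (SE 0.12, adjusted p = 0.0554) did not pass the test. It passed under 8 of 23 other settings, among them without E2 uterus replicate 3 (-0.47, adjusted p = 0.0177). The co-receptors Lrp5 and Lrp6 differed by 0.09 (adjusted p = 0.364) and 0.05 (adjusted p = 0.809), and Fzd6, known for planar polarity, by -0.01 (adjusted p = 0.930). The 95% confidence intervals were -0.05 to 0.24 for Lrp5, -0.17 to 0.26 for Lrp6 and -0.18 to 0.15 for Fzd6.

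Of the 4 R-spondins, 2 rose and 0 fell, beside 12.4% and 14.3% of all genes. With only 4 genes, no share is read from this count. Rspo1, known for its role in ovary determination, measured 8.39, 8.52 and 8.29 in E2 uterus, against 7.46, 7.31 and 7.60 in oil uterus. Every E2 array was higher, and the rise was 0.94 (SE 0.09, adjusted p = 1.55e-05), with the oil mean below 7.50. Rspo3, needed for blood vessel growth in the mouse placenta, measured 9.74, 9.71 and 9.52 in E2 uterus, against 8.93, 9.08 and 8.94 in oil uterus. It rose by 0.68 (SE 0.12, adjusted p = 0.00156) without overlap.

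The receptors for these R-spondins did not pass the test. Lgr4 differed by -0.05 (adjusted p = 0.728). Lgr5, a marker of gland progenitors in the mouse uterus, measured 6.10, 6.20 and 5.36 in E2 uterus, against 6.43, 6.01 and 7.28 in oil uterus. The groups overlapped, the highest value was that of oil replicate 3, and the difference was -0.69 (SE 0.29, adjusted p = 0.113). Lgr6 differed by 0.28 (adjusted p = 0.332), and by 0.56 without both arrays of oil replicate 3 (adjusted p = 0.00484).

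Beside 12.4% of all genes higher and 14.3% lower, only Dkk2 passed among 9 secreted inhibitors. It measured 7.20, 7.22 and 7.04 in E2 uterus, against 7.70, 7.68 and 8.28 in oil uterus. The groups did not overlap, and the fall was 0.73 (SE 0.21, adjusted p = 0.0211), with the E2 mean below 7.50. This call was lost when E2 uterus replicate 1, E2 uterus replicate 3 or oil uterus replicate 3 was left out (adjusted p = 0.0511, 0.0683 and 0.0825), and the difference was -0.54 without both arrays of oil replicate 3. Sfrp2 differed by -0.66 (adjusted p = 0.200) and Sfrp4 by -0.61 (adjusted p = 0.346). The fit pools their spread with that of the oviduct arrays, 1 or more of which lay far from the rest. Sfrp2 passed with uterine arrays alone (adjusted p = 0.00357). Sfrp4 did not pass with uterine arrays alone, and of all settings only leaving out oil oviduct replicate 3 called it (adjusted p = 0.0382). On oil uterus replicate 3, Sfrp4 also lay 0.79 above the other oil uterus arrays. Dkk1, a Dickkopf inhibitor of Lrp6, differed by 0.07 (adjusted p = 0.667).

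Lef1, the DNA-binding partner of beta-catenin and itself a Wnt target, measured 6.39, 6.43 and 6.46 in E2 uterus, against 8.02, 8.19 and 8.43 in oil uterus. The E2 arrays lay close together, more than 1 log2 unit below every oil array. The difference was -1.78 (SE 0.11, adjusted p = 7.48e-07), a 3.45-fold fall, with the E2 mean below 7.50. Axin2, a scaffold of the beta-catenin destruction complex that Wnt signalling induces, measured 7.43, 7.53 and 7.32 in E2 uterus, against 7.15, 7.33 and 7.25 in oil uterus. The groups overlapped slightly, and the difference of 0.18 (95% confidence interval 0.01 to 0.35) had an adjusted p of 0.107. Znrf3 differed by -0.20 (adjusted p = 0.151).

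**Figure D2:**
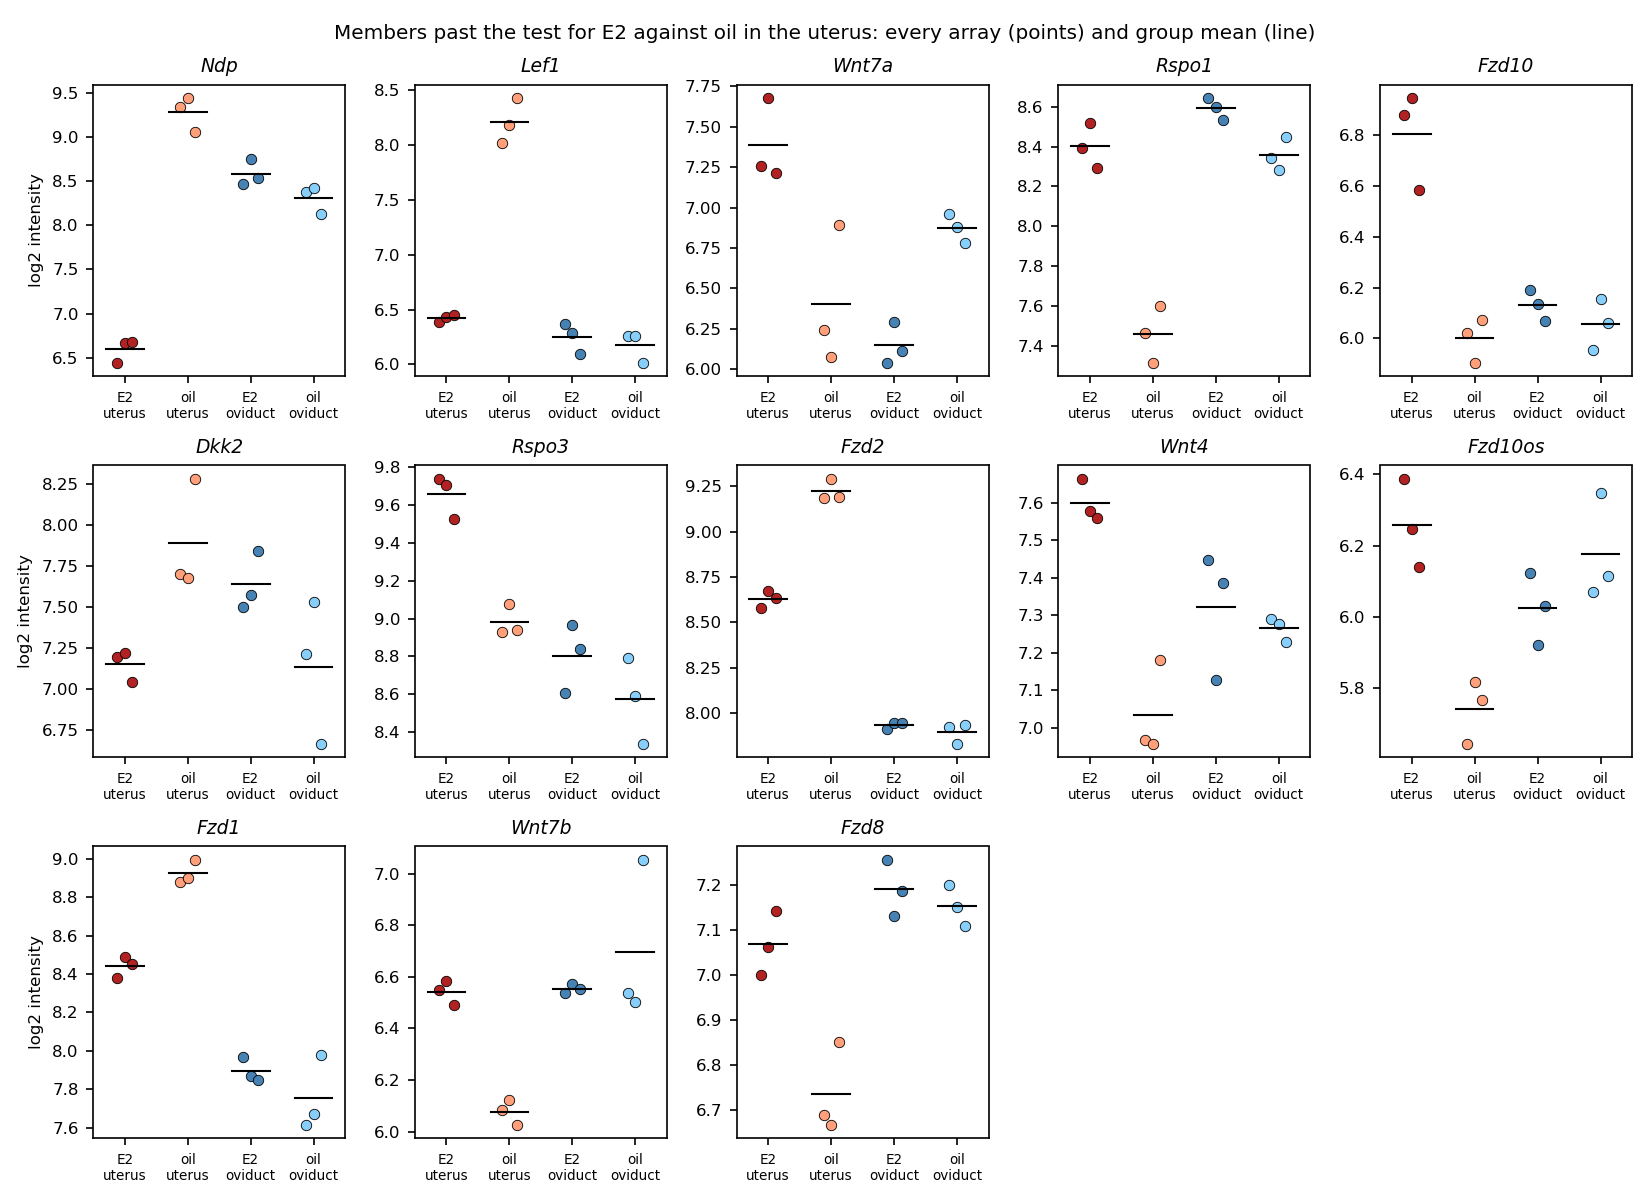
Log2 intensity of the 13 members past the test in the uterus, by group, with each array as a point and the group mean as a line; each panel has its own vertical scale that does not start at 0. In every panel the 3 E2 uterus arrays lie apart from the 3 oil uterus arrays, while E2 and oil oviduct lie closer together in most panels.

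Genes of the pathway outside the members were read against the same uterine background of 12.4% higher and 14.3% lower. Of 17 genes for Wnt secretion and extracellular control, 3 rose and 3 fell, or 17.6% each way. Gpc3 and Gpc6, glypicans that bind Wnt proteins at the cell surface, fell by 1.46 (SE 0.22, adjusted p = 0.000424) and 1.10 (SE 0.16, adjusted p = 0.000319). Apcdd1, a membrane inhibitor of Wnt reception, fell by 1.21 (SE 0.09, adjusted p = 4.02e-06). The 3 that rose were chosen after their values were seen. Porcn, the enzyme that attaches the lipid to Wnt proteins, rose by 1.05 (SE 0.08), Rnf43 by 0.58 (SE 0.08) and Wls, which carries Wnt proteins to the surface, by 0.43 (SE 0.06).

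Porcn measured 9.08, 8.91 and 9.10 in E2 uterus, against 8.05, 8.06 and 7.83 in oil uterus, without overlap. Of 15 co-receptors and planar polarity genes, 2 rose and 3 fell (13.3% and 20%), led by the polarity genes Prickle1 (-0.67, SE 0.08), Celsr2 (0.65, SE 0.06) and Prickle2 (-0.46, SE 0.12). Of 23 genes of the beta-catenin cascade, 2 rose and 2 fell (8.70% each way), led by the beta-catenin cofactor Bcl9 (0.80, SE 0.07), the kinase Csnk1e (0.30, SE 0.06) and Pygo1 (-0.25, SE 0.07), which binds Bcl9. The Prickle2 call was lost without E2 uterus replicate 1, oil uterus replicate 2 or oil uterus replicate 3 (adjusted p = 0.0549 to 0.0716), and the Pygo1 call without E2 uterus replicate 3 or oil uterus replicate 3 (adjusted p = 0.0530 to 0.0564). Amer1, a membrane-associated regulator of the destruction complex that was counted as fallen (-0.20), lost its call without any of the E2 uterus arrays or without oil uterus replicates 1 or 2 (adjusted p = 0.0570 to 0.101).

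Of 12 known targets outside the members, 2 rose and 4 fell, or 16.7% beside 12.4% and 33.3% beside 14.3%. The median difference was -0.11 over these targets and 0.00 over all genes. Without both arrays of oil replicate 3, 2 rose and 3 fell, and the median over these targets was -0.03. Myc, a driver of cell growth, measured 8.19, 8.32 and 8.42 in E2 uterus, against 9.82, 9.88 and 9.91 in oil uterus. Every E2 array was lower, and the fall was 1.55 (SE 0.08, adjusted p = 2.20e-07). Cd44, a hyaluronan receptor, fell by 1.07 (SE 0.16, adjusted p = 0.000406). The list also holds Apcdd1 and Rnf43, which the first list counts too. The remaining calls, of Ccnd1 and Sox9, were named after their values were seen. Ccnd1, a cyclin of cell cycle entry, differed by -0.35 (adjusted p = 0.0466), and by -0.21 without both arrays of oil replicate 3. Its call was lost when any of 9 single arrays was left out (adjusted p = 0.0587 to 0.161), which were all those of E2 uterus and E2 oviduct, oil uterus replicates 1 and 3 and oil oviduct replicate 1. Sox9, a transcription factor of gland epithelium, differed by 0.39 (adjusted p = 0.0271), a call lost without E2 uterus replicate 3, any of the oil uterus arrays (adjusted p = 0.0539 to 0.0774) or both arrays of oil replicate 3 (0.0534). In the oviduct 0 genes of the 4 lists passed limma's adjusted test.

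**Figure D3:**
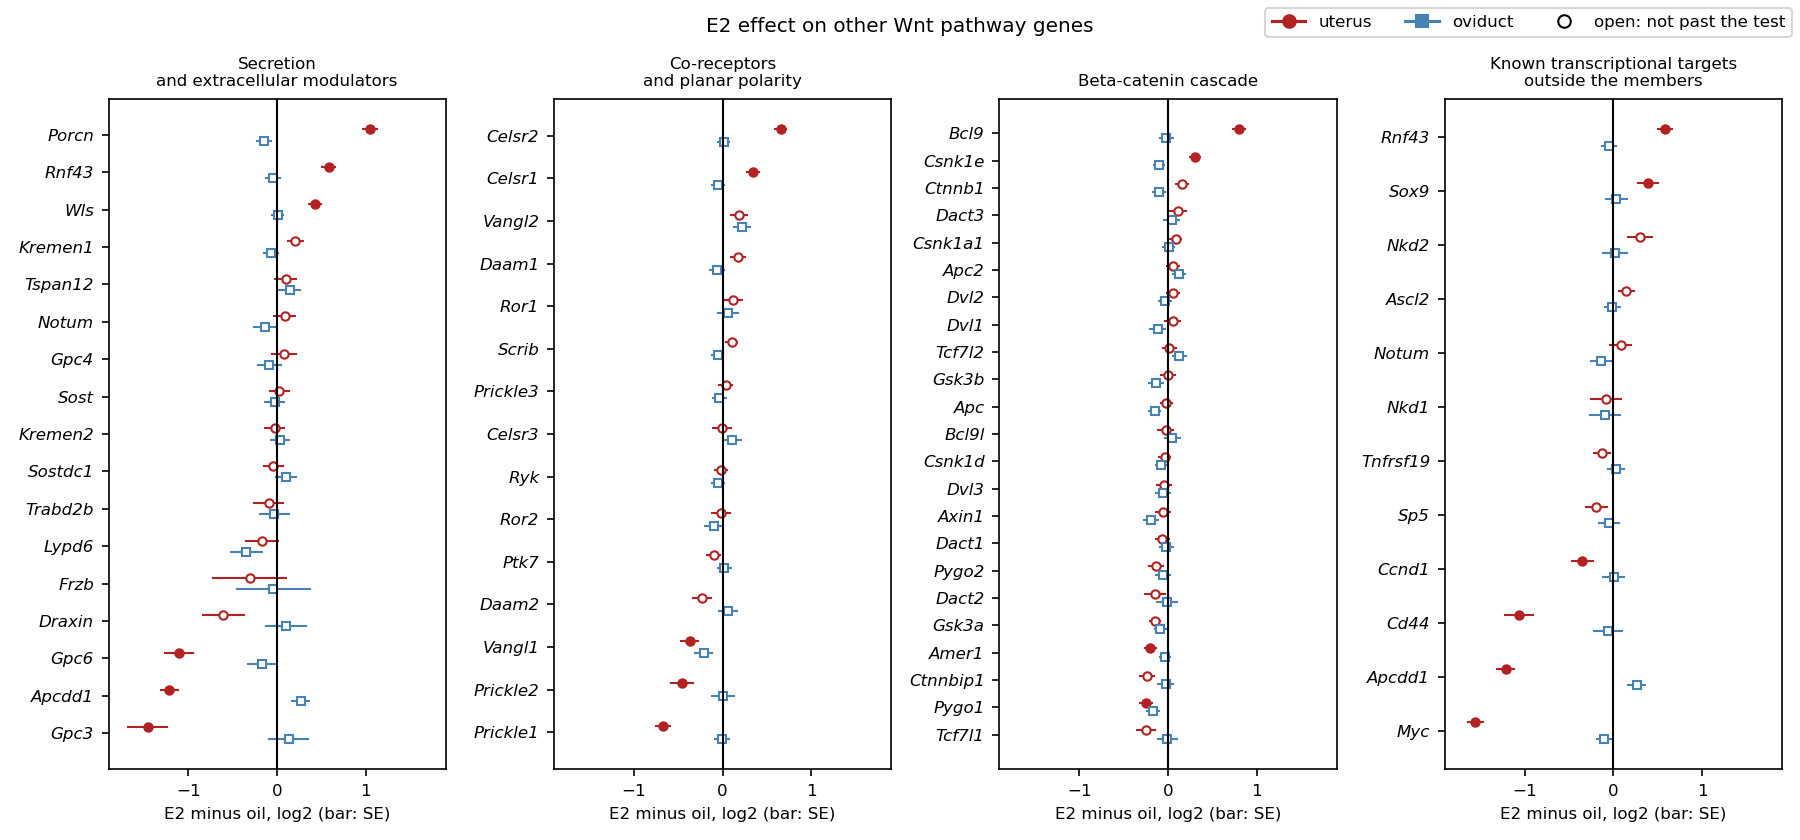
E2 minus oil in log2 units, with the standard error as a bar, for pathway genes outside the members in uterus (circles) and oviduct (squares), 1 panel per list and filled where past the test. Uterine values reach from -1.55 for Myc to 1.05 for Porcn, and no oviduct symbol is filled.

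Cell type markers also moved in the uterus. All 8 epithelial markers rose, with a summed intensity of 8144 to 9145 in E2 uterus and 3357 to 3918 in oil uterus. All 6 endothelial markers fell, with a sum of 3271 to 3524 in E2 uterus and 5001 to 5894 in oil uterus. Of 6 gland markers 3 fell (sum 238 to 274 in E2 uterus and 813 to 1060 in oil uterus), and of 8 stromal markers 3 fell (sum 14638 to 14989 in E2 uterus and 15572 to 15921 in oil uterus). Of 6 macrophage markers 5 rose (sum 3294 to 3696 in E2 uterus and 1729 to 2182 in oil uterus). All 4 oviduct secretory cell markers rose (sum 3151 to 3528 in E2 uterus and 1481 to 1573 in oil uterus). Between tissues, 3 of these 4 were higher in oviduct of oil mice, but in E2 mice 1 was higher and 3 were lower. The list therefore does not mark oviduct against uterus in these data. Of 6 smooth muscle markers 2 rose (sum 19219 to 19888 in E2 uterus and 13986 to 19168 in oil uterus). Of 4 mesothelial markers 2 rose (sum 1157 to 1524 in E2 uterus and 1024 to 1251 in oil uterus), and of 7 ciliated cell markers 2 fell (sum 860 to 983 in E2 uterus and 1470 to 1565 in oil uterus). The 2 that fell, named after their values were seen, were Tppp3 (-1.06) and Dnah5 (-0.67). Tppp3 was the brightest of the list in uterus and dominates its sum. The other ciliated cell markers differed by -0.10 to 0.11 and did not pass. No corpus luteum marker passed the test. Without both arrays of oil replicate 3, rises numbered 5 for smooth muscle, 6 for macrophages and 1 for mesothelium, and stromal falls numbered 4. The counts of the other marker lists in this paragraph were unchanged. No marker had an intensity of 0. The part of these shifts in the member values was not tested.

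In the oviduct, 0 of the 52 members passed limma's adjusted test for E2 against oil, beside 0.291% of all genes. At an unadjusted p under 0.05, 7 members passed, which is 13.5% beside 10.5% of all genes. Arrays of E2 and oil oviduct did not overlap for 9 members, or 17.3% beside 17.4%. Both shares lie near the background. The median log2 difference was 0.01 over the members and -0.01 over all genes.

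Wnt7a had the lowest value of the 52 differences. It measured 6.04, 6.29 and 6.11 in E2 oviduct, against 6.96, 6.88 and 6.78 in oil oviduct. All E2 arrays were lower, and the difference was -0.73 (SE 0.19, 95% confidence interval -1.13 to -0.32, adjusted p = 0.181). Without both arrays of oil replicate 3 it was -0.77 (adjusted p = 0.0440). Leaving out oil uterus replicate 3 alone, an array of the other tissue that enters the shared spread, gave an adjusted p of 0.0428.

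Fzd6 measured 9.13, 9.22 and 9.18 in E2 oviduct, against 9.52, 9.57 and 9.36 in oil oviduct. The groups did not overlap, and the difference was -0.31 (SE 0.08, adjusted p = 0.174). The other 5 members with an unadjusted p under 0.05 were higher in E2 oviduct. They were Dkk2 (0.50, adjusted p = 0.424), the ligand Wnt2b (0.46, adjusted p = 0.380), Ndp (0.27, adjusted p = 0.467), Rspo1 (0.23, adjusted p = 0.365) and Lrp5 (0.20, adjusted p = 0.297). Dkk2 and Wnt2b were named here after their values were seen. Lef1 differed by 0.07 (95% confidence interval -0.17 to 0.32), Axin2 by -0.12 (-0.29 to 0.04) and Znrf3 by -0.07 (-0.28 to 0.13).

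**Figure D4:**
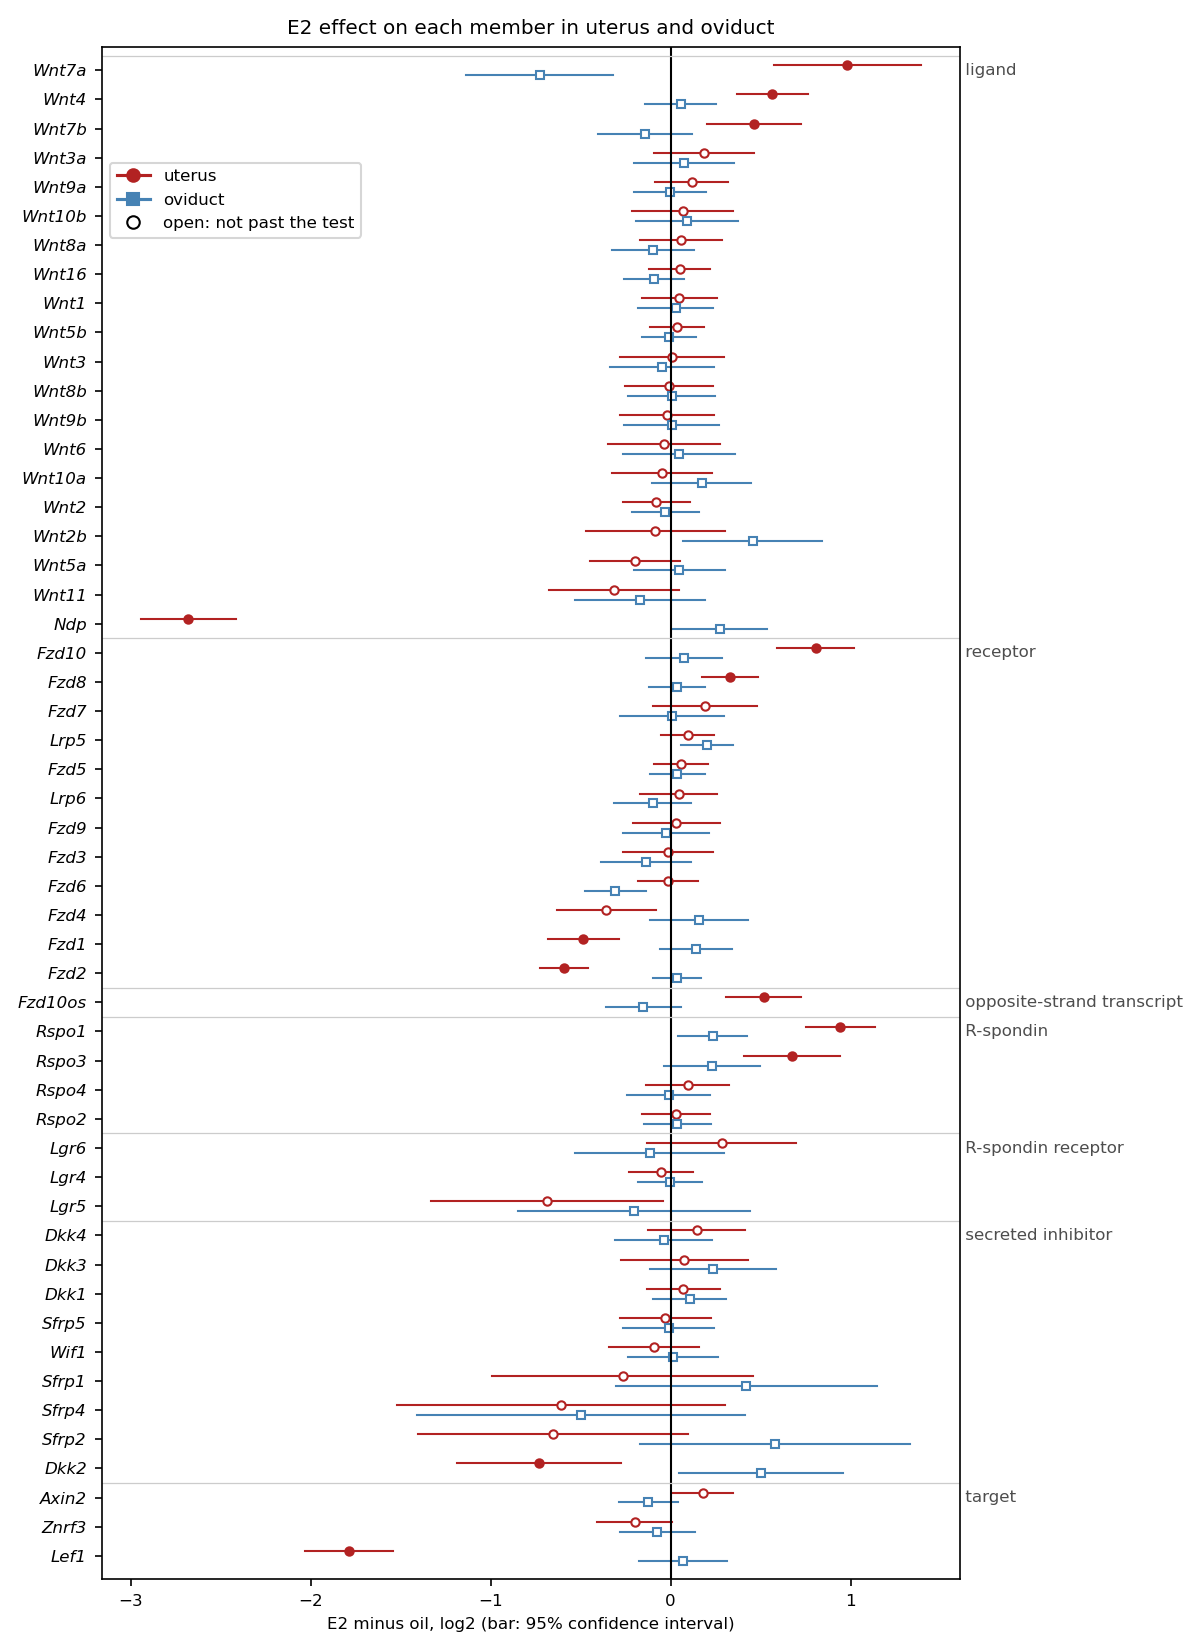
E2 minus oil in log2 units with 95% confidence intervals for all 52 members in uterus (circles) and oviduct (squares), grouped by role and filled where past the test. The 13 filled symbols are all uterine, from -2.68 for Ndp to 0.98 for Wnt7a, and the widest intervals belong to Sfrp4, Sfrp2, Sfrp1 and Lgr5.

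The E2 effect itself was then compared between the tissues, as the effect in oviduct minus that in uterus. It differed for 11 members, 5 with a positive and 6 with a negative value. That is 21.2% of members beside 11.5% of all genes (9.62% beside 5.77% for positive values and 11.5% beside 5.71% for negative ones). For 4 members the difference was at least 2-fold, or 7.69% beside 2.85%. All 11 were among the 13 called in the uterus, which share the same uterine arrays. Rspo3 (-0.45, adjusted p = 0.132) and Fzd8 (-0.29, adjusted p = 0.0876) were called in the uterus without a tested difference between tissues.

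For Ndp the effects differed by 2.95 (SE 0.17, adjusted p = 3.65e-06). Its oviduct arrays were 8.47, 8.75 and 8.53 with E2, against 8.37, 8.42 and 8.13 with oil. They all lay between the E2 and oil arrays of the uterus. Lef1 measured 6.37, 6.29 and 6.09 in E2 oviduct, against 6.26, 6.26 and 6.01 in oil oviduct. All of these lay below the lowest E2 uterus array, and the effects differed by 1.86 (SE 0.16, adjusted p = 2.85e-05).

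Wnt7a had estimates of opposite sign, -0.73 in oviduct and 0.98 in uterus, and the effects differed by -1.71 (SE 0.26, adjusted p = 0.00166). The oviductal estimate did not pass its own test, and the uterine one did. Dkk2 likewise differed by 1.23 (SE 0.29, adjusted p = 0.0188), with estimates of 0.50 in oviduct and -0.73 in uterus. Its arrays were 7.50, 7.57 and 7.84 in E2 oviduct, against 7.21, 7.53 and 6.67 in oil oviduct, and the groups overlapped. The difference of effects was 0.80 without both arrays of oil replicate 3, and the call was lost without E2 oviduct replicate 3 (1.13, adjusted p = 0.0533).

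The receptors Fzd2 and Fzd1 had positive differences of 0.63 each (adjusted p = 0.000697 and 0.00889). Fzd2 measured 7.91, 7.94 and 7.94 in E2 oviduct, against 7.93, 7.83 and 7.94 in oil oviduct, and the groups overlapped. Fzd10 had a difference of -0.73 (SE 0.14, adjusted p = 0.00512). Its oviduct arrays were 6.19, 6.14 and 6.07 with E2, against 5.96, 6.15 and 6.06 with oil, and they overlapped. Fzd10os had a difference of -0.67 (SE 0.13, adjusted p = 0.00772), with 6.12, 5.92 and 6.03 in E2 oviduct, against 6.07, 6.35 and 6.12 in oil oviduct.

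Rspo1 had a difference of -0.71 (SE 0.12, adjusted p = 0.00344). It measured 8.64, 8.60 and 8.53 in E2 oviduct, against 8.34, 8.28 and 8.45 in oil oviduct. The oviduct arrays were thus near the level that the uterus had with E2. Wnt7b differed by -0.61 (adjusted p = 0.0386), and by -0.40 without both arrays of oil replicate 3, while the call was lost when any array of E2 uterus, oil uterus or E2 oviduct was left out (adjusted p = 0.0582 to 0.0870). With the replicate number as a block the value was -0.61 (adjusted p = 0.0569). Wnt4 differed by -0.51 (adjusted p = 0.0247), a call lost without E2 uterus replicates 1 or 2, oil uterus replicates 1 or 2 or oil oviduct replicate 1 (adjusted p = 0.0503 to 0.0624). Differences that missed the test were those of Axin2 (-0.30, adjusted p = 0.0977), Fzd4 (0.51, adjusted p = 0.0903) and Fzd6 (-0.29, adjusted p = 0.116).

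Between the tissues themselves, the comparison of oviduct with uterus called 20 members in E2 mice, 11 higher and 9 lower in oviduct. That is 38.5% of members beside 34.1% of all genes (21.2% beside 15.2% higher and 17.3% beside 18.9% lower). In oil mice it called 23, 13 higher and 10 lower, or 44.2% beside 38.7% (25% beside 17.3% higher and 19.2% beside 21.5% lower). At least 2-fold differences were called for 8 members in E2 mice (15.4% beside 6.14%) and 10 in oil mice (19.2% beside 7.81%). The lists shared 14 members, 70.0% of the E2 list and 60.9% of the oil list, and 13 of these had the same direction. The exception was Ndp.

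The 8 members higher in oviduct in both treatments were Wnt2b, Wnt16, Wnt11, Lgr4, Lgr6, Dkk3, Fzd3 and Lrp5. Wnt2b, a ligand known from retina and liver, measured 9.34, 9.20 and 9.16 in E2 oviduct, against 6.40, 6.75 and 7.19 in E2 uterus. In oil mice it measured 8.94, 8.90 and 8.49 in oviduct, against 7.01, 6.74 and 6.84 in uterus. No oviduct array came within 1 log2 unit of a uterine one, and the differences were 2.45 (SE 0.18, adjusted p = 9.73e-07) in E2 mice and 1.91 (SE 0.18, adjusted p = 4.89e-06) in oil mice.

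Wnt16, known from bone, measured 7.74, 7.61 and 7.59 in E2 oviduct, against 6.63, 6.57 and 6.49 in E2 uterus. In oil mice it measured 7.78, 7.70 and 7.73 in oviduct, against 6.56, 6.37 and 6.62 in uterus. It was higher by 1.08 in E2 mice and 1.22 in oil mice (SE 0.08 each), without overlap. Wnt11 measured 7.98, 7.99 and 7.73 in E2 oviduct, against 6.95, 6.64 and 6.54 in E2 uterus. Its oil arrays were 7.90, 8.03 and 8.29 in oviduct, against 7.03, 6.69 and 7.34 in uterus. The differences were 1.20 and 1.05 (SE 0.16 each), again without overlap.

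Lgr4, an R-spondin receptor of many epithelia, measured 9.38, 9.52 and 9.42 in E2 oviduct, against 8.27, 8.16 and 8.37 in E2 uterus. In oil mice it measured 9.44, 9.34 and 9.55 in oviduct, against 8.28, 8.25 and 8.42 in uterus. E2 and oil arrays of a tissue overlapped, and the tissue difference was 1.17 in E2 mice and 1.13 in oil mice (SE 0.08 each). Dkk3, a divergent Dickkopf family member, measured 9.82, 9.92 and 9.88 in E2 oviduct, against 8.62, 8.72 and 8.57 in E2 uterus. Its oil arrays were 9.79, 9.61 and 9.52 in oviduct, against 8.43, 8.22 and 9.02 in uterus. It was higher by 1.24 in E2 mice and 1.08 in oil mice (SE 0.16 each), with no overlap.

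Lgr6 measured 7.74, 7.55 and 7.62 in oil oviduct, against 6.59, 6.20 and 7.21 in oil uterus. The oviduct arrays were all higher, by 0.97 on average (SE 0.19, adjusted p = 0.00147). In E2 mice the difference of 0.57 (adjusted p = 0.0353) was lost when any of the 6 arrays compared was left out (adjusted p = 0.0564 to 0.109). Lrp5 was higher in oviduct by 0.37 in E2 mice (adjusted p = 0.00117) and by 0.26 in oil mice (adjusted p = 0.00854).

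The 5 members lower in oviduct in both treatments were Sfrp2, Fzd2, Fzd1, Fzd7 and Rspo3. Sfrp2 measured 8.61, 8.32 and 7.79 in oil oviduct, against 10.41, 10.44 and 10.55 in oil uterus. The gap between those groups exceeded 1 log2 unit, and the difference was -2.23 (SE 0.34, adjusted p = 0.000275). In E2 mice it measured 9.84, 8.34 and 8.28 in oviduct, against 9.65, 10.01 and 9.77 in uterus. Oviduct replicate 1 lay within the uterine range, and the difference of -0.99 (adjusted p = 0.0423) was lost under 11 of 23 other settings (adjusted p = 0.0515 to 0.166).

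Fzd2, with the arrays given above, was lower in oviduct than in uterus, with a difference of -0.70 in E2 mice (adjusted p = 4.91e-06) and -1.33 in oil mice (adjusted p = 2.43e-08). Fzd1 measured 7.97, 7.87 and 7.85 in E2 oviduct and 7.61, 7.67 and 7.98 in oil oviduct. Both groups lay below all uterine arrays, with differences of -0.55 in E2 mice (adjusted p = 0.000643) and -1.17 in oil mice (adjusted p = 1.33e-06). Rspo3 measured 8.61, 8.97 and 8.84 in E2 oviduct and 8.79, 8.59 and 8.34 in oil oviduct. The difference from uterus was -0.85 in E2 mice (adjusted p = 0.000210) and -0.41 in oil mice (adjusted p = 0.0195). Without both arrays of oil replicate 3 the oil difference was -0.31 and did not pass the test.

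Ndp was called in opposite directions. It was higher in oviduct than in uterus of E2 mice by 1.98 (SE 0.12, adjusted p = 2.86e-07), and in oil mice the difference was -0.97 (SE 0.12, adjusted p = 5.65e-05). Wnt7a differed by -1.24 in E2 mice (SE 0.19, adjusted p = 0.000304). In oil mice it differed by 0.47 (adjusted p = 0.0662), and by 0.76 without oil replicate 3 (adjusted p = 0.00254). Lef1 differed by -0.18 in E2 mice (adjusted p = 0.268), while the difference in oil mice was -2.03 (SE 0.11, adjusted p = 8.91e-08). These comparisons share arrays with those of E2 against oil, so they restate the same values from the side of the tissue.

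Sfrp1 measured 8.93, 8.29 and 8.41 in E2 oviduct, against 7.02, 7.20 and 7.24 in E2 uterus. Every oviduct array was at least 1 log2 unit higher, and the difference was 1.39 (SE 0.33, adjusted p = 0.00642). In oil mice the difference was 0.70 (adjusted p = 0.121), and 0.88 without oil replicate 3 (adjusted p = 0.00931). Sfrp4 measured 8.33, 8.09 and 10.09 in oil oviduct, against 9.76, 9.74 and 10.54 in oil uterus. The third oviduct array lay inside the uterine range. The difference of -1.17 (adjusted p = 0.0431) became -1.53 without both arrays of oil replicate 3, and 13 of 23 other settings lost the call (adjusted p = 0.0543 to 0.165). In E2 mice Sfrp4 differed by -1.06 (adjusted p = 0.0707), and without oil oviduct replicate 3 the adjusted p was 0.00139.

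**Figure D5:**
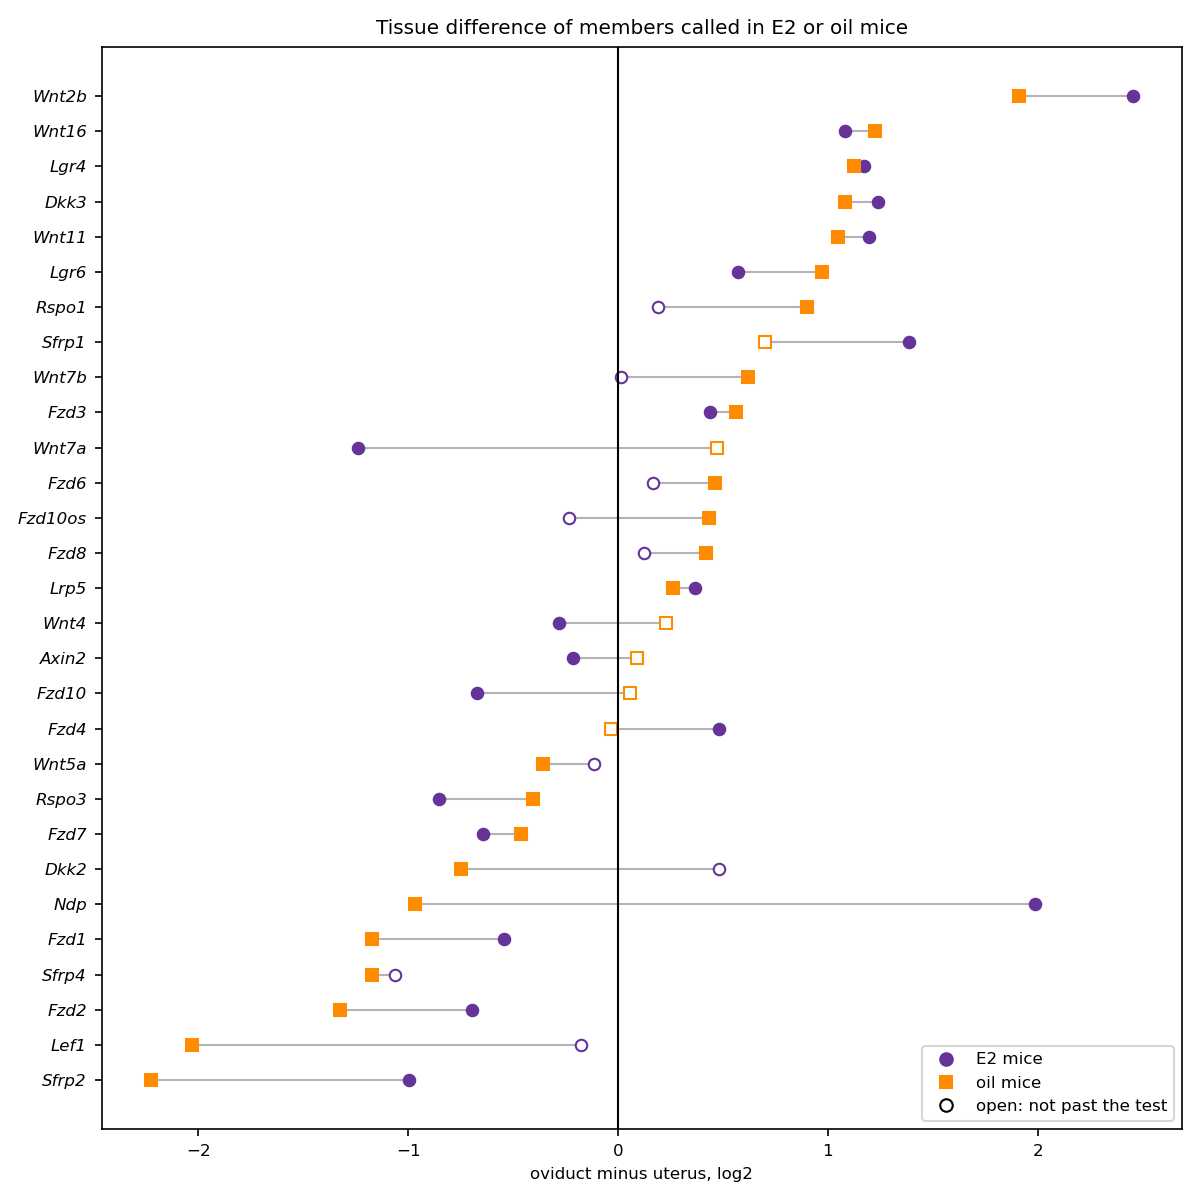
Oviduct minus uterus in log2 units for the 29 members called in E2 mice (circles) or oil mice (squares), joined by a line per gene and filled where past the test. Wnt2b, Wnt16, Lgr4, Dkk3 and Wnt11 lie to the right in both, and Ndp lies at 1.98 in E2 mice, against -0.97 in oil mice.

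Wnt4 differed between the tissues by -0.28 in E2 mice (adjusted p = 0.0326) and 0.23 in oil mice (adjusted p = 0.0651), and the E2 call was lost under 5 other settings (adjusted p = 0.0534 to 0.137). Axin2 differed by -0.21 (adjusted p = 0.0481) in E2 mice, a call lost under 10 settings (adjusted p = 0.0525 to 0.188), and by 0.09 in oil mice. Fzd4 differed by 0.48 in E2 mice (adjusted p = 0.0106) and by -0.03 in oil mice (adjusted p = 0.881). Fzd6 differed by 0.17 in E2 mice (adjusted p = 0.122) and 0.46 in oil mice (adjusted p = 0.000498). Wnt7b differed by 0.01 in E2 mice (adjusted p = 0.955) and 0.62 in oil mice (adjusted p = 0.00134).

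Rspo1 differed between tissues by 0.19 in E2 mice (adjusted p = 0.121) and 0.90 in oil mice (adjusted p = 7.81e-06). Wnt5a differed by -0.11 in E2 mice (adjusted p = 0.510) and -0.36 in oil mice (adjusted p = 0.0268), a call lost without oil replicate 3 (-0.27). The oil calls of Dkk2 (-0.75) and Fzd7 (-0.46) were also lost without oil replicate 3, with differences of -0.32 and -0.29. In oil mice, all 6 endothelial markers and 6 of 8 stromal markers were lower in oviduct, and 7 of 8 epithelial markers higher. Endothelial markers summed to 2158 to 2693 in oil oviduct and 5001 to 5894 in oil uterus, and stromal markers to 10534 to 12407 in oil oviduct and 15572 to 15921 in oil uterus. Epithelial markers summed to 8295 to 9280 in oil oviduct and 3357 to 3918 in oil uterus. In E2 mice the counts were different. Of 8 epithelial markers 1 was higher and 3 were lower in oviduct (sum 7939 to 8481 in E2 oviduct and 8144 to 9145 in E2 uterus), and 7 of 8 stromal markers were lower (sum 10811 to 11492 in E2 oviduct and 14638 to 14989 in E2 uterus). Of 6 markers each, 4 were lower in E2 oviduct for endothelium (sum 2479 to 2683 in E2 oviduct and 3271 to 3524 in E2 uterus), smooth muscle (13329 to 15826 in E2 oviduct and 19219 to 19888 in E2 uterus) and macrophages (2228 to 2758 in E2 oviduct and 3294 to 3696 in E2 uterus). Of 4 mesothelial markers 3 were higher in oviduct in each treatment. The part of these markers in the tissue differences was not tested.

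The other 23 members were called in none of the 5 comparisons. They include 12 ligands, among them Wnt1, Wnt2, Wnt3 and Wnt3a, the receptors Fzd5, Fzd9 and Lrp6, the R-spondins Rspo2 and Rspo4, and the inhibitors Dkk1, Dkk4, Sfrp5 and Wif1. Lgr5 and Znrf3 complete the list. The 95% confidence interval of the E2 difference was -0.13 to 0.27 for Dkk1 in uterus and -0.41 to 0.01 for Znrf3 in uterus.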

How the data were processed

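The authors deposited 1 table with the intensity of 35556 probe sets on every array, made with RMA per the submitters' processing notes. The RMA version is not given in the sources used here. Its values were linear, with array maxima of 9102 to 9950 and none at 0 or below, and not log2 as the design had assumed. They were log2 transformed without a pseudocount. Of the probe sets, 21789 had a single gene symbol in the platform annotation, 1621 several and 12146 none listed. The RefSeq gene table of GRCm38.p6 held the gene identifier of 21698 of the single-symbol probe sets. Where a gene had several of these, the brightest by mean over the 12 arrays stood for it, giving 19938 genes, with no filter on dim values. The labels' titles gave the tissue, since the tissue field names both organs for every sample.

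A limma 3.58.1 model (R 4.3.3; lmFit, then eBayes) took all 12 arrays as 4 group means. Tests were two-sided, adjusted by Benjamini-Hochberg over all genes, with a threshold of 0.05. The 5 comparisons set E2 against oil in uterus and in oviduct, the difference of these effects, and oviduct against uterus in E2 and in oil mice. SE is that of the fit. Precision is limited by the 3 arrays of each group, with which an exact permutation test cannot go below p = 0.10. In simulated arrays with 200 changed genes among 19938, a log2 change of 1 was recovered for 89% of these in the uterine comparison. In the oviductal comparison it was recovered for 93%. A change of 0.5 was recovered for 52% and 54% in the same order. In the real arrays, 26.7% of all genes were called in uterus and 0.291% in oviduct. The cutoff after adjustment depends on how many genes change. The simulated percentages therefore do not give the recovery in either tissue, and no difference between tissues is read from them.

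The members, pathway lists, markers and tests were chosen with earlier results of these data known. Arrays are given for called members without overlap, up to 20 in uterus, 10 in oviduct, 8 for the difference of effects and 10 for each tissue comparison, ranked by absolute log2 change. Always named were Wnt4, Wnt5a, Wnt7a, Wnt7b, Wnt11, Wnt16, Fzd4, Fzd6, Lrp5, Lrp6, Ndp, Sfrp4, Dkk1, Rspo1, Rspo3, Lgr4, Lgr5, Axin2, Lef1 and Znrf3, and up to 3 genes of each pathway list. Alternatives were a fit to the compared arrays alone, a replicate block, 2 filters on dim genes, averaged probe sets, median centring, quantile normalization, an intensity trend, array weights, log2(value + 16), each array left out and both oil replicate 3 arrays left out. Scan dates and scanner files were not used here.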

Additional observations from a re-analysis of the deposited data

Results flagged for a closer look

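For 11 members the effect of E2 differed between the tissues by a test of the difference itself (limma interaction contrast, oviduct minus uterus, n = 3 arrays per group). That is 21.2% of members beside 11.5% of all genes. The positive differences were those of Ndp (2.95, adjusted p = 3.65e-06), Lef1 (1.86, adjusted p = 2.85e-05), Dkk2 (1.23, adjusted p = 0.0188), Fzd2 (0.63, adjusted p = 0.000697) and Fzd1 (0.63, adjusted p = 0.00889). The negative ones were those of Wnt7a (-1.71, adjusted p = 0.00166), Fzd10 (-0.73, adjusted p = 0.00512), Rspo1 (-0.71, adjusted p = 0.00344), Fzd10os (-0.67, adjusted p = 0.00772), Wnt7b (-0.61, adjusted p = 0.0386) and Wnt4 (-0.51, adjusted p = 0.0247). Without both arrays of oil replicate 3, all 11 passed the test. When each array was left out in turn, Dkk2, Wnt4 and Wnt7b lost their calls at least once and the other 8 did not. Wnt7b also lost its call with the replicate block (-0.61, adjusted p = 0.0569).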

How the results depend on the processing

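No member changed direction in a called comparison under any alternative. Of the calls, 12 of 13 in uterus, 8 of 11 for the difference of effects, 18 of 23 for oviduct against uterus in oil mice and 16 of 20 in E2 mice held under every alternative that tested the gene. With array weights, 8 members fell in uterus, 2 were lower in oviduct, 10 had a negative difference of effects and 15 were lower in oviduct of E2 mice. The weights added upward calls as well. Axin2, Fzd7 and Wnt9a then rose in uterus, and Fzd4 had a positive difference of effects. Dkk2, Fzd8, Lgr5 and Sfrp5 were then called higher in oviduct of E2 mice. Calls over all genes grew with array weights too, to 41.2% in uterus, 1.32% in oviduct, 22.7% for the difference of effects and 52.9% for tissue in E2 mice, against 26.7%, 0.291%, 11.5% and 34.1% without them. With genes at or above the median level, which left 9969 genes to test, 4 rose in uterus, and 46.3% of all genes tested were called. Wnt7a, Wnt7b, Fzd10, Fzd10os and Lef1 lay below that median (6.92) and were not tested there. The large fall of Lef1 was thus not checked by this filter. The rises of Rspo1, Rspo3, Wnt4 and Fzd8 kept their calls. Oil mice had 6 members lower in oviduct with the compared arrays alone, and 6 without both arrays of oil replicate 3, where E2 oviduct had 1 member lower. Without both arrays, 36.7% of all genes were called for tissue in oil mice, against 38.7% in the main fit, and 0.607% in oviduct. With each array left out, counts ranged from 8 to 11 higher and 4 to 7 lower in uterus, 0 higher and 0 to 1 lower in oviduct, and 4 to 7 positive and 4 to 8 negative for the difference of effects. For oviduct against uterus they ranged from 10 to 12 higher and 6 to 10 lower in E2 mice and 13 to 16 higher and 7 to 9 lower in oil mice. Over all genes, calls in either direction then ranged from 21.2% to 29.5% in uterus and 0.0702% to 0.336% in oviduct. The range was 7.88% to 12.6% for the difference of effects. For tissue it was 27.4% to 36.6% in E2 mice and 33.9% to 38.7% in oil mice. Causes were not tested.

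For E2 against oil, deviations of arrays with the same replicate number correlated between -0.20 and 0.19. For oviduct against uterus these correlations were 0.0045, 0.05 and 0.26 in oil mice and 0.26, 0.03 and 0.03 in E2 mice. Arrays of different numbers reached 0.26 in oil mice and 0.24 in E2 mice. The labels do not say whether both organs of a number came from the same mice. The main fit did not pair them, and whether the tissues are paired was not settled. With the replicate block, counts were 8 higher and 5 lower in uterus, 0 and 0 in oviduct, 5 positive and 5 negative for the difference of effects (Wnt7b was lost), 11 higher and 8 lower for tissue in E2 mice (Axin2 was lost) and 13 higher and 10 lower in oil mice. In the same order, the block called 26.7%, 0.196%, 11.1%, 34.1% and 38.7% of all genes. Members below 7.50, the highest Y-linked value, have the least certain fold changes.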
